A study of Homo sapiens with 2 samples.

Results

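DNA topoisomerases and the phosphodiesterases that clear topoisomerases stuck on DNA were described at the mRNA level in H9 cells with and without doxorubicin. The H9 line is an established cell line from a human T cell lymphoma. The genes are TOP1, TOP1MT, TOP2A, TOP2B, TOP3A, TOP3B, TDP1 and TDP2, taken by name from a table of read counts, and all 8 were among its 19220 gene symbols. The untreated group was 1 library of H9 cells labelled as 0 h of doxorubicin, and the treated group was 1 library of H9 cells with 0.05 µM doxorubicin in the medium for 6 h. Both libraries were labelled wild type and were made from RNA selected by poly(A). The comparison asks how transcript levels differ between exposed and unexposed cells of 1 line. There was 1 library per condition, so no spread between cultures was measured, no test between the conditions was possible, and every interval below covers counting error only.

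The untreated library held 33730703 counts and the treated library 50174434. The T cell identity of the line was checked with 11 markers, of which 8 reached 100 counts summed over both libraries, with a summed level of 1275 CPM (counts scaled by library size) untreated and 1329 treated. CD3D, CD3E, CD3G, CD247, CD4, CD5, LCK and ZAP70 were measured, while CD2 had 0 counts untreated and 2 treated, CD7 had 8 counts in each library, and CD28 had 8 and 13. CD3G was higher by the size rule given below, by 2.16-fold (2.01 to 2.33). Of 4 B cell markers 2 were measured, CD79A with 6007 and 6628 counts and CD79B with 755 and 1065, and 0 of 4 myeloid markers reached the minimum. The part of these markers in the results below was not tested.

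Topoisomerases relieve the twisting and tangling of DNA by cutting it and closing it again, and during the cut a tyrosine of the enzyme is bound to the DNA end. TOP1 cuts a single strand in the nucleus, and TOP1MT is its relative in mitochondria. TOP2A and TOP2B cut both strands and pass another duplex through the gap. TOP2A is most abundant in dividing cells, where it separates sister chromosomes, and TOP2B is also present in cells that do not divide. TOP3A and TOP3B pass single strands, TOP3A with the BLM helicase and in mitochondria, and TOP3B on DNA and RNA together with TDRD3. Doxorubicin, an anthracycline, inserts into DNA and traps TOP2A and TOP2B in the cut state. TDP1 removes the remains of a trapped TOP1 from a 3′ end, and TDP2 removes those of a trapped TOP2 from a 5′ end.

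The reactive residues of TOP1, TOP2A, TOP2B, TOP3A, TOP3B and TDP1 lie in the following stretches of 57 coding bases, written 5′ to 3′ in the sense of the gene, with the codon of the catalytic residue in capitals. They are shown because the trapped complex forms at the tyrosines of the topoisomerases and because they let the paralogs be compared base by base. No stretch of TOP1MT or TDP2 is shown.
TOP1: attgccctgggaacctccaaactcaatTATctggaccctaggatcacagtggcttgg
TOP2A: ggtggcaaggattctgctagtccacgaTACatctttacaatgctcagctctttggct
TOP2B: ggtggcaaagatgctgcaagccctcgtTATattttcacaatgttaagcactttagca
TOP3A: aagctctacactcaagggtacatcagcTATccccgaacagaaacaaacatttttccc
TOP3B: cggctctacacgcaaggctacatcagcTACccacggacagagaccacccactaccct
TDP1: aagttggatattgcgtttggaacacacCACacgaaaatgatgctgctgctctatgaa

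These sequences come from GENCODE release 29, which is annotated on GRCh38, while the counts were made on hg19, so positions are given for GRCh38 only. The capitals are the catalytic tyrosine codon in the 5 topoisomerases and a catalytic histidine codon in TDP1, a member of the phospholipase D family. In TOP1 this is codon 723, in exon 20 of 21, at chr20:41122127-41122129 on the plus strand. In TOP2A it is codon 805, in exon 20 of 35, at chr17:40402923-40402925 on the minus strand. In TOP2B it is codon 821, in exon 20 of 36, at chr3:25624314-25624316 on the minus strand. The TOP3A codon is 362, in exon 11 of 19, at chr17:18292840-18292842, and the TOP3B codon is 336, in exon 10 of 18, at chr22:21964251-21964253, both on the minus strand. The TDP1 codon is 263, in exon 7 of 17, at chr14:89975811-89975813 on the plus strand. TOP2A and TOP2B were identical at 43 of the 57 bases and differed at 14, and TOP3A and TOP3B differed at 16.

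How far reads of each gene could be told from those of other genes was looked at with stretches of 50 bases, taken every 25 bases along the longest coding transcript that is paired with RefSeq. TOP1MT, TOP2A, TOP2B, TDP1 and TDP2 had 0 stretches in common with transcripts of any other gene, TOP3A had 1 of 163 and TOP1 had 8 of 148. TOP3B differed, with 78 of 123 stretches, or 63.4%, found in other transcripts. Most of these lie in AC245452.1, a transcript annotated on the opposite strand of the same locus, which covers 90.7% of the TOP3B exons. Of the 123 stretches, 15 are held outside the locus, by the pseudogene TOP3BP1, whether or not AC245452.1 holds them too. One of them, shown because its 50 bases are the same at both loci, spans coding bases 2116 to 2165 of TOP3B.
TOP3B, held also by TOP3BP1: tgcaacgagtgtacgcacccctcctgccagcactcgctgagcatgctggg

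The counts of TOP3B are therefore uncertain, since no source used here states the strand setting or how reads that align at several places were counted. TOP3BP1 was not found by name among the 19220 gene symbols, and AC245452.1 was not analysed here.

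Counts were scaled with TMM factors, and each ratio is treated over untreated. The size rule calls a gene higher or lower where the difference is 1.5-fold or more and the 95% counting interval lies on that side of 1. By this rule 1 of the 8 genes was higher, TOP3B, and 0 were lower. Among all 11244 measured genes, 7.26% were called higher and 9.57% lower, so the count of 1 among the 8 was near that of the table. Under total-count scaling the table gave 1084 genes higher and 852 lower, in place of 816 and 1076, and the count among the 8 was again 1 higher and 0 lower. At a smaller limit, a log2 ratio of 0.32, TOP3B, TDP1 and TOP3A were higher and TOP1MT was lower, against 20.4% of measured genes higher and 21.5% lower. The median log2 ratio was 0.15 over the 8 genes and 0.007 over all measured genes. Longer transcripts had higher ratios across the table, so 2 further values are given below, one adjusted for transcript length and one for the lengths of transcript and coding sequence together with GC content.

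**Figure D1:**
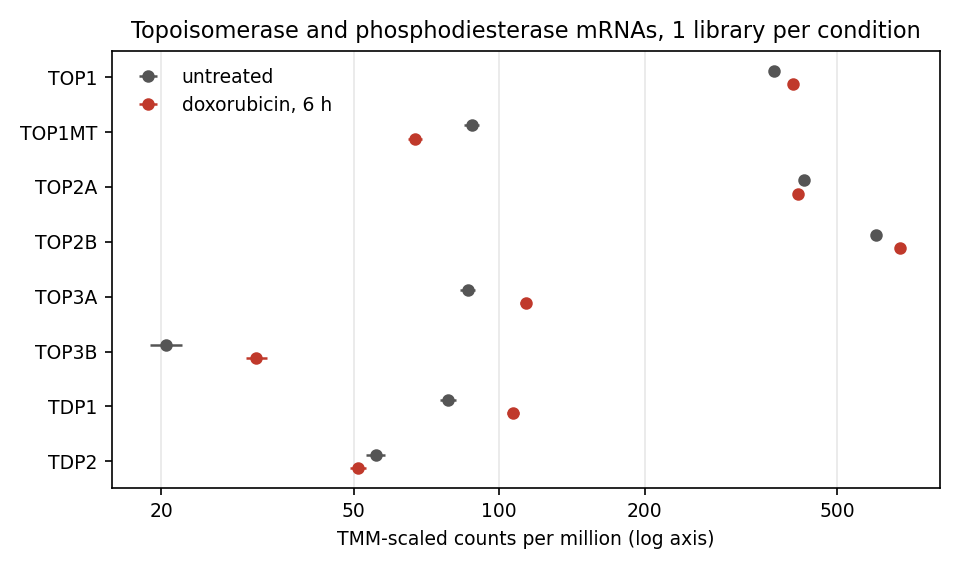
TMM-scaled CPM of the 8 genes on a log axis, in the untreated library (grey) and the library with doxorubicin for 6 h (red), with bars for the 95% counting interval. TOP2B, TOP2A and TOP1 lie far above the other 5 genes in both libraries, and TOP3B is lowest at 20.5 CPM untreated and 31.4 treated.

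TOP2A and TOP2B, the enzymes that doxorubicin traps, were among the most abundant of these mRNAs and differed little between the libraries. TOP2A had 14072 counts untreated and 21292 treated, or 427 CPM (420 to 434) and 414 CPM (409 to 420). TOP2B had 19833 counts untreated and 34617 treated, or 602 CPM (594 to 610) and 674 CPM (667 to 681). TOP2A was thus slightly lower and TOP2B slightly higher in the treated library on this scale. The log2 ratio of TOP2A was -0.04 (-0.07 to -0.01), but 0.02 under total-count scaling, and it was -0.23 and -0.25 after the adjustments for length and for lengths with GC content. That of TOP2B was 0.16 (0.14 to 0.19), and -0.006 and -0.05 after the adjustments. Neither gene therefore has a settled direction of its own.

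Their ratio to each other does not depend on library scaling. TOP2A had 0.710 counts per count of TOP2B untreated and 0.615 treated. The ratio was lower with doxorubicin by a factor of 0.867 (0.843 to 0.891), a log2 difference of -0.21, which was -0.22 and -0.20 after the adjustments. The balance thus lay further towards TOP2B in the treated library under all 3 settings. The ratio alone does not show whether TOP2A was lower or TOP2B higher. Their log2 ratios were -0.04 and 0.16 unadjusted, and -0.23 and -0.006 with the length adjustment. For TOP2A in a culture of dividing cells, fewer cells in the phases that express it and less of its RNA per cell cannot be told apart. G2/M genes, whose mRNAs peak in the same phases, had a median log2 ratio of 0.04. Of these 12 genes 1 was higher and 1 lower, beside 7.26% and 9.57% of all measured genes. After adjustment for lengths and GC content their median was 0.09, with 0 higher and 0 lower. The part of cell cycle phase in the TOP2A to TOP2B ratio was not tested.

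TOP2A is known for its cell cycle control through CCAAT boxes. The 250 bases before its RefSeq start, at chr17:40417897-40418146 on the minus strand of GRCh38, are shown with each CCAAT motif in capitals, searched on both strands, so that the reverse form appears as ATTGG.
TOP2A: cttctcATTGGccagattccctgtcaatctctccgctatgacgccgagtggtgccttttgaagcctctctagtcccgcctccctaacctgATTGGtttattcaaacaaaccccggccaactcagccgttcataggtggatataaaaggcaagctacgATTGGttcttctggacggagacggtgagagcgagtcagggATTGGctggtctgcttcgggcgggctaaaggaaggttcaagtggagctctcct

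This window held 4 matches, all in the reverse form. The last of them lies inside TOP2A as GENCODE annotates it, since that annotation starts the gene at base 40417950, within the window. Of 35116 promoters of the same length in the RefSeq table, 32.0% held at least 1 match and 0.874% at least 4. TOP2B has RefSeq entries for different starts, with 0 matches before one and 2 before the other. TOP1, TOP3A, TOP3B, TDP1 and TDP2 had 0 matches in their windows, and TOP1MT was not analysed here. These are matches of letters only.

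TOP1, the nuclear single-strand enzyme, had 12163 counts untreated and 20793 treated, or 369 CPM (363 to 376) and 405 CPM (399 to 410). Its log2 ratio was 0.13 (0.10 to 0.17), and 0.09 and 0.05 after the adjustments. The level was thus slightly higher in the treated library under each setting, and far below the size limit. TOP1MT, the mitochondrial form, had 2891 counts untreated and 3434 treated, or 87.8 CPM (84.6 to 91.0) and 66.8 CPM (64.6 to 69.1). It was 1.31-fold lower, at a log2 ratio of -0.39 (-0.46 to -0.32), and had the lowest unadjusted ratio of the 8 genes. Of all measured genes, 18.1% had a lower ratio. After the adjustments TOP1MT was at -0.17 and -0.34, so its direction held and its size depended on the length model. With length alone TOP2A, at -0.23, was lower.

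Set against each other, TOP1 had 4.21 counts per count of TOP1MT untreated and 6.06 treated. This is a shift by a factor of 1.44 (1.36 to 1.52) towards the nuclear enzyme, a log2 difference of 0.53, and 0.26 and 0.39 after the adjustments. Among 7 other nuclear genes for the upkeep of mitochondrial DNA, 0 were higher and 0 lower by the size rule. This stands beside 7.26% higher and 9.57% lower of all measured genes, so few calls would be found among 7 genes. Their median log2 ratio was -0.10, but 0.04 and 0.07 after the adjustments. Under total-count scaling 1 of the 7 was higher, beside 1084 of all 11244 measured genes. TFAM, which packages mitochondrial DNA, was at -0.12 (-0.18 to -0.06), and POLRMT, the mitochondrial RNA polymerase, was at 0.11 (0.07 to 0.15), with 30.9% of its stretches of 50 bases found elsewhere.

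The TOP2 enzymes can also be set against TOP1, which is not the main target of doxorubicin. TOP2A had 1.16 counts per count of TOP1 untreated and 1.02 treated, a factor of 0.885 (0.858 to 0.913), a log2 difference of -0.18, which was -0.32 and -0.30 after the adjustments. TOP2B had 1.63 and 1.66 counts per count of TOP1, a factor of 1.02 (0.992 to 1.05), an interval that includes 1. After each adjustment the log2 difference of TOP2B from TOP1 was -0.10.

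TOP3A and TOP3B had higher levels in the treated library than in the untreated one. TOP3A had 2834 counts untreated and 5822 treated, or 86.0 CPM (82.9 to 89.2) and 113 CPM (110 to 116). It was 1.32-fold higher (1.26 to 1.38), below the size limit, at a log2 ratio of 0.40, and at 0.33 and 0.12 after the adjustments. TOP3B had 674 counts untreated and 1615 treated, or 20.5 CPM (18.9 to 22.1) and 31.4 CPM (29.9 to 33.0). It was the least abundant of the 8 genes in both libraries, and the counting intervals of the libraries did not overlap. TOP3B was 1.54-fold higher (1.40 to 1.68). This is 0.62 (0.49 to 0.75) on the log2 scale, and 93.7% of measured genes lay below it.

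The call of TOP3B rests close to its limit. The lower bound of its interval, 1.40-fold, is under the size limit, and after adjustment for lengths and GC content its log2 ratio was 0.50 (0.37 to 0.64), no longer past the rule, which 4.62% of genes then passed as higher and 3.31% as lower. After adjustment for transcript length alone it was 0.64 (0.51 to 0.77) and still past it, with 5.46% of genes higher and 4.16% lower. With the opposite-strand transcript and the pseudogene described above, which of these loci gave the additional reads was not tested. TOP3A had 4.20 counts per count of TOP3B untreated and 3.60 treated, a factor of 0.857 (0.774 to 0.949).

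Of 8 genes for protein partners of the TOP3 enzymes, 1 was lower by the size rule and 0 were higher. Among all measured genes 9.57% were lower and 7.26% higher, so these counts were near those of the table. After either adjustment 0 of the 8 were lower. Their median log2 ratio was -0.17. RMI2, a subunit of the complex of TOP3A with BLM, was 1.64-fold lower, at -0.72 (-0.85 to -0.58), and at -0.38 after adjustment for lengths and GC content. BLM was at 0.19 (0.14 to 0.24) and TDRD3, the scaffold of TOP3B, at -0.54 (-0.66 to -0.41), both named here after their values were seen. After adjustment for lengths and GC content BLM was at -0.03, the opposite sign, and TDRD3 at -0.55. TDRD3 had 947 counts untreated and 1019 treated, against 674 and 1615 for TOP3B.

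TDP1 and TDP2 clear trapped complexes, and the ratio of TDP1 was the higher one. TDP1, which acts mainly on TOP1 remains, had 2581 counts untreated and 5485 treated, or 78.3 CPM (75.3 to 81.4) and 107 CPM (104 to 110). It was 1.36-fold higher (1.30 to 1.43), below the size limit, at a log2 ratio of 0.45, and at 0.41 and 0.33 after the adjustments. Of all measured genes, 87.1% had a lower ratio than TDP1, and 85.7% after adjustment for lengths and GC content. TDP2, which acts on TOP2 remains, had 1829 counts untreated and 2622 treated, or 55.5 CPM (53.0 to 58.1) and 51.0 CPM (49.1 to 53.0). The counting intervals of TDP2 in the libraries overlapped at 53.0 CPM. Its log2 ratio was -0.12 (-0.21 to -0.03), but 0.07 (-0.01 to 0.16) and 0.09 (0.003 to 0.18) after the adjustments, so it has no settled direction.

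TDP1 had 1.41 counts per count of TDP2 untreated and 2.09 treated. The ratio was higher with doxorubicin by a factor of 1.48 (1.37 to 1.60). The log2 difference of 0.57 became 0.34 and 0.24 after the adjustments, with the same direction. This pair is 1 of the 6 compared, and TOP1 over TOP1MT was also higher, by a factor of 1.44 (1.36 to 1.52). TDP1 has the longer transcript, with 3702 bases against 2071 for TDP2.

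**Figure D2:**
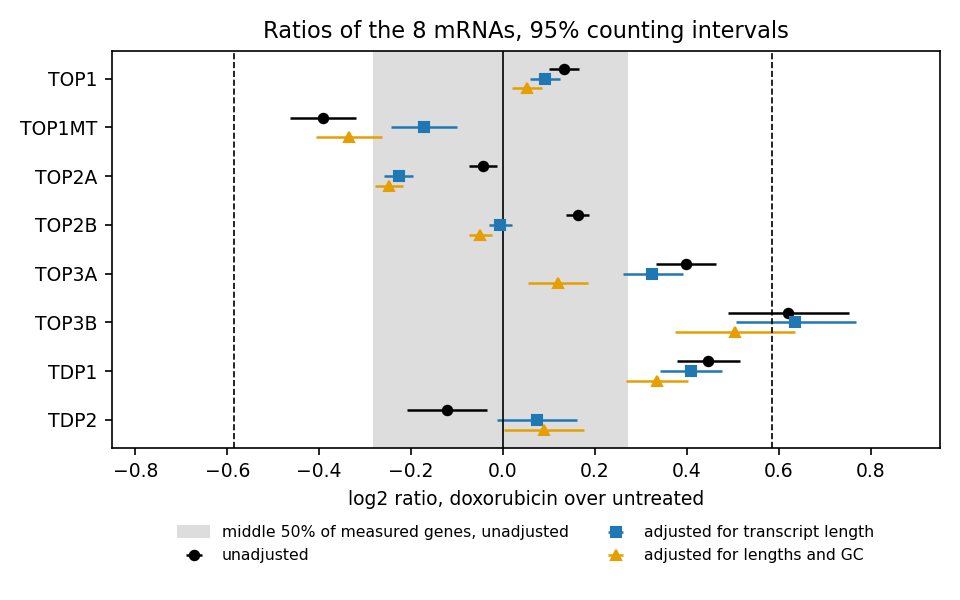
Log2 ratio of treated over untreated for each gene with its 95% counting interval, unadjusted (black), adjusted for transcript length (blue) and adjusted for both lengths with GC content (orange). The grey band holds the middle 50% of measured genes, from -0.28 to 0.27, the dashed lines mark 1.5-fold, and the values of TOP3B before adjustment and with length alone lie past one of them.

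Transcript length went with the ratio over the whole table, and the 8 genes were spread along it. Spearman's rho between ratio and length was 0.55 across 11028 genes, which are not independent replicates and share the same 2 libraries. With the median length of all annotated transcripts of a gene in place of the longest it was 0.15. With the genes split by length into quintiles, TOP1MT and TDP2 fell in the second, whose median log2 ratio was -0.12, and TOP1, TOP3B and TDP1 in the third, with a median of 0.03. TOP2B and TOP3A fell in the fourth, with a median of 0.14, and TOP2A in the longest, with a median of 0.28. The longest quintile runs from 5537 to 109224 bases, and TOP2A, with 5758, is near its short end. TOP2A, at -0.04, lay below the middle 50% of its quintile, which began at 0.06. TOP3B and TDP1, at 0.62 and 0.45, lay above the middle 50% of theirs, which ended at 0.24, and TOP3A, at 0.40, lay above that of its quintile, which ended at 0.35. TOP1MT, at -0.39, lay below that of its quintile, which began at -0.34, while TOP1, TOP2B and TDP2 lay within theirs. TOP1MT, with 1960 bases, is near the short end of its quintile, which starts at 1897 bases. After adjustment for transcript length 26.1% of genes had a lower ratio than TOP1MT and 21.0% a lower one than TOP2A. With lengths and GC content these shares were 11.9% and 18.2%.

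**Figure D3:**
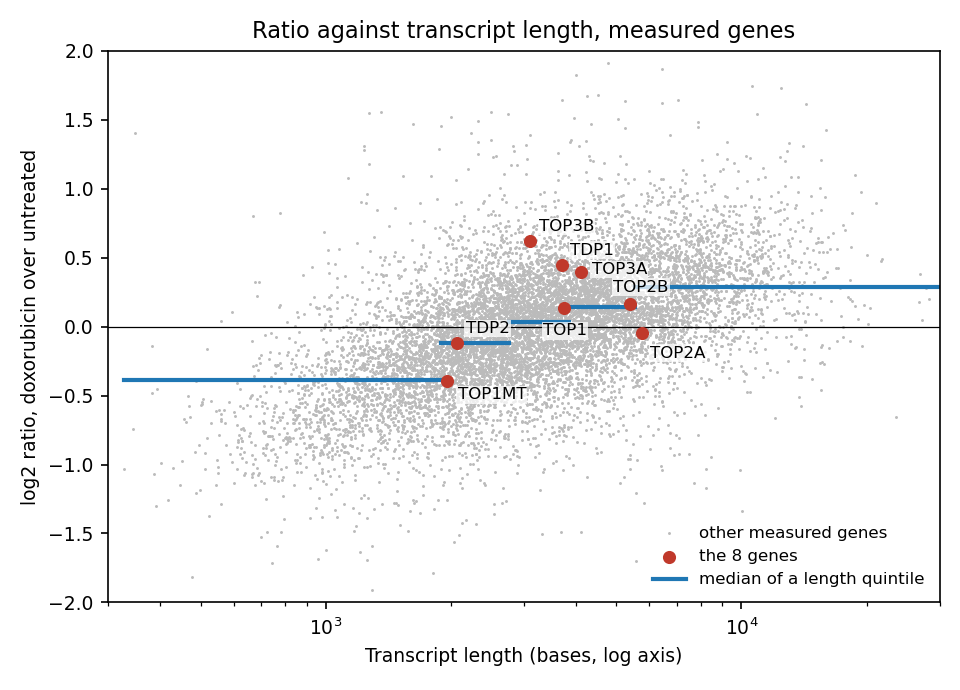
Log2 ratio of treated over untreated against transcript length on a log axis, for the 8 genes (red) and the other measured genes (grey), with 8 genes outside the axes. Blue lines are the medians of the quintiles of all genes by length, from -0.39 for the shortest to 0.28 for the longest, and TOP3A, TOP3B and TDP1 lie well above the line of their quintile while TOP2A and TOP1MT lie below theirs.

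Levels of different genes were compared per kilobase of transcript. In the untreated library TOP2B was highest at 112 CPM per kilobase (110 to 113), followed by TOP1 at 98.8 (97.0 to 101) and TOP2A at 74.2 (73.0 to 75.4). TOP1MT followed at 44.8 CPM per kilobase (43.2 to 46.4) and TDP2 at 26.8 (25.6 to 28.1). TDP1 at 21.2 (20.4 to 22.0) and TOP3A at 20.9 (20.1 to 21.7) did not differ beyond counting error, and TOP3B was lowest at 6.58 (6.10 to 7.10). In the treated library the order of the first 4 was the same, with TOP2B at 125 CPM per kilobase, TOP1 at 108, TOP2A at 72.0 and TOP1MT at 34.1. TDP1 at 28.8 (28.1 to 29.6) and TOP3A at 27.5 (26.8 to 28.3) then stood above TDP2 at 24.6 (23.7 to 25.6), where they had stood below it. TOP3B remained lowest at 10.1. Per kilobase of coding sequence TOP1 came before TOP2B in both libraries, at 161 against 124 untreated and 176 against 139 treated, so the order of these leading genes depends on the length used. On that scale TOP3A stayed below TDP2 in the treated library, at 37.7 against 47.0, TDP1 stood above both at 58.5, and TOP1MT at 44.3 came after TDP2. The order below the 3 leading genes thus depends on the length used as well.

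As shares of the counts of all 8 genes, TOP2B made up 34.9% untreated (34.5 to 35.3, Wilson interval) and 36.2% treated (35.9 to 36.5). TOP2A made up 24.7% (24.4 to 25.1) and 22.3% (22.0 to 22.5), and TOP1 21.4% (21.0 to 21.7) and 21.7% (21.5 to 22.0). These 3 genes thus gave most of the counts in each library. The share of TOP1MT was 5.08% (4.91 to 5.27) untreated and 3.59% (3.47 to 3.71) treated, and that of TDP2 was 3.22% (3.07 to 3.36) and 2.74% (2.64 to 2.85). TOP3A went from 4.98% (4.81 to 5.16) to 6.08% (5.94 to 6.24), TDP1 from 4.54% (4.37 to 4.71) to 5.73% (5.59 to 5.88) and TOP3B from 1.19% (1.10 to 1.28) to 1.69% (1.61 to 1.77). Within the family, the shares of TOP2A, TOP1MT and TDP2 were smaller in the treated library and those of TOP2B, TOP3A, TOP3B and TDP1 larger, while the intervals of TOP1 overlapped.

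**Figure D4:**
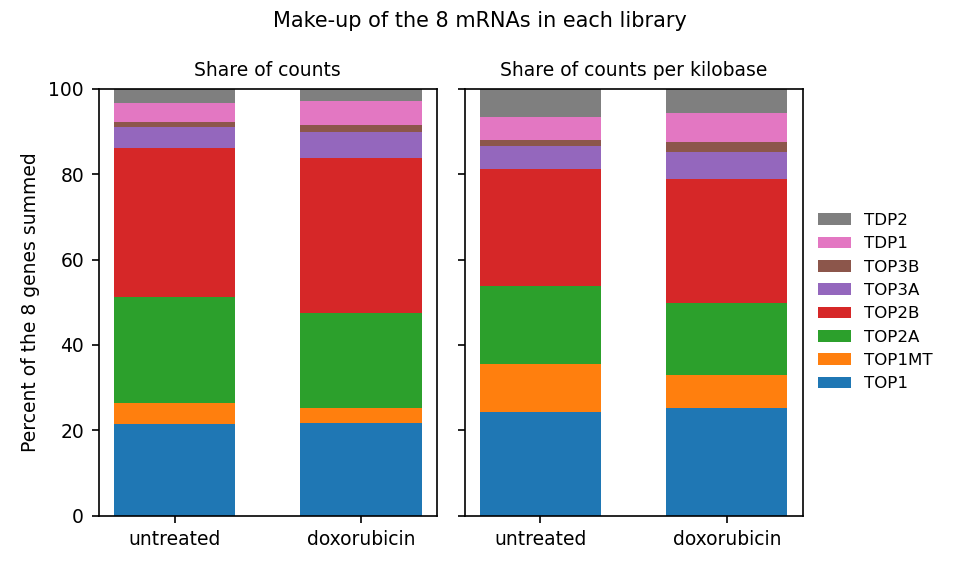
Share of each gene in the summed counts of the 8 genes (left) and in their summed counts per kilobase of transcript (right), as stacked bars for the untreated and the treated library. TOP1, TOP2A and TOP2B fill most of each bar, and the TOP1MT segment is 11.1% of the per-kilobase sum untreated and 7.92% treated.

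Genes that act with these enzymes were read from 8 lists with 81 measured members. Of these 5 were higher and 4 lower by the size rule, or 6.17% and 4.94%, beside 7.26% and 9.57% of all measured genes. Their median log2 ratio was 0.05. After adjustment for lengths and GC content 1 of these 9 calls was kept and 8 were lost. Calls were then fewer over the whole table as well, with 4.62% of genes higher and 3.31% lower.

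Repair of the single-strand breaks left by TOP1 had 0 of 7 genes higher and 1 lower, with a median log2 ratio of -0.19, but 0.01 and 0.008 after the adjustments. POLB, the gap-filling polymerase, had 1279 counts untreated and 1214 treated and was 1.64-fold lower, at -0.72 (-0.83 to -0.60), and at -0.40 after adjustment for lengths and GC content. Genes for proteolysis, SUMO and ubiquitin at trapped complexes had 2 of 19 higher and 1 lower, with a median of 0.02, but -0.05 after each adjustment. DDI2, a protease that cuts ubiquitinated proteins, was at 1.74 (1.31 to 2.22) from 50 and 263 counts, and at 1.54 after adjustment, the call that was kept. Other genes overlap 15.3% of the DDI2 exons, so its counts are uncertain. RNF111, a ubiquitin ligase directed by SUMO, was at 0.74 (0.59 to 0.90), and at 0.52 after adjustment. UCHL3, a deubiquitinase known to act on TDP1, was at -0.70 (-0.81 to -0.59), and at -0.13 after adjustment, with 46.3% of its stretches of 50 bases found in other transcripts.

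Nucleases that cut away protein-linked ends had 1 of 13 genes higher and 0 lower, with a median of 0.14. ERCC4, the XPF nuclease subunit, was 1.57-fold higher, at 0.65 (0.50 to 0.80), and at 0.45 after adjustment, with 11.2% of its stretches found in other transcripts. End joining, which closes the ends that TDP2 has cleaned, had 1 of 6 genes higher and 0 lower, with a median of 0.12. The higher gene was PRKDC, the kinase that Ku recruits to broken ends, with 7570 counts untreated and 21701 treated, at 0.88 (0.84 to 0.92), and at 0.30 after adjustment.

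Genes of mitotic chromosome structure and of G2/M were read because TOP2A works beside them. Condensin and its partners had 0 of 9 higher and 0 lower, with a median of 0.27 that was 0.0008 after adjustment. Those with the most counts were NCAPD2 at 0.40 (0.37 to 0.44) and SMC4 at 0.05 (0.01 to 0.08), the latter with 33.2% of its stretches found in other transcripts. After adjustment for lengths and GC content NCAPD2 was at 0.0008 and SMC4 at -0.08, so SMC4 changed sign and NCAPD2 was close to 0. In the G2/M list MKI67, the Ki-67 proliferation antigen, was at 0.85 (0.83 to 0.88), and at 0.26 after adjustment. UBE2C, the ubiquitin-conjugating enzyme of the anaphase-promoting complex, was at -0.81 (-0.87 to -0.76), and at -0.31 after adjustment. TOP2A lay between them at -0.04, where the list median was 0.04. After adjustment TOP2A was at -0.25 and the list median at 0.09, and of this list UBE2C alone was lower than TOP2A. Of topoisomerase-like genes, SPO11, which makes meiotic breaks, had 0 counts in each library. A count of 0 is compatible with up to 0.0911 CPM untreated and 0.0584 CPM treated. TOP6BL, its meiotic partner, listed under an older name, had 558 and 688 counts, at -0.34 (-0.50 to -0.17), and other genes overlap 10.1% of its exons.

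**Figure D5:**
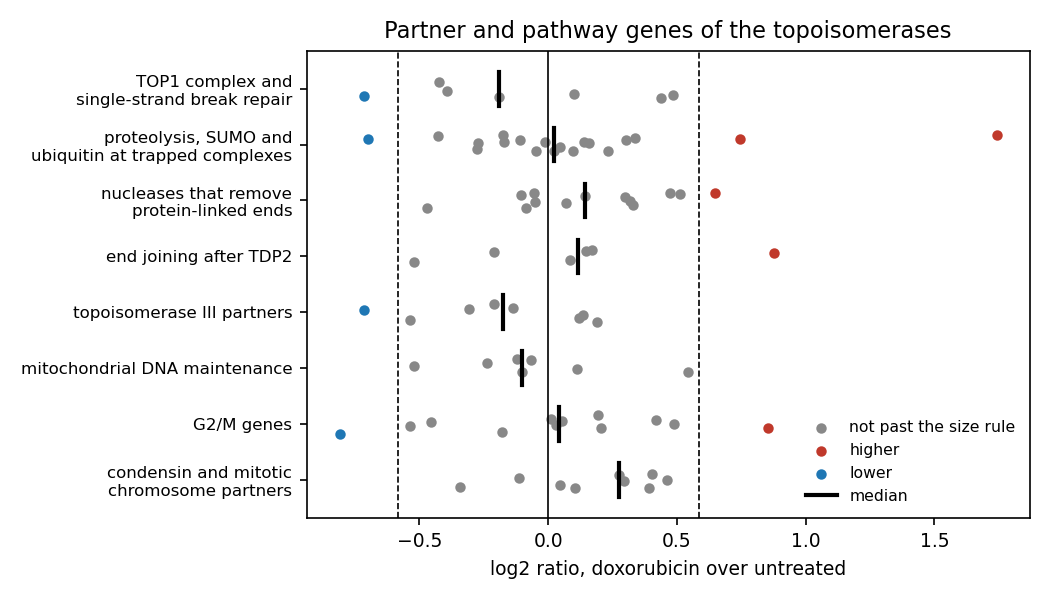
Log2 ratio of treated over untreated for the 81 measured genes of the 8 lists, with 1 point per gene, red for higher, blue for lower and grey for neither, and a black bar for the median of each list. The medians lie between -0.19 and 0.27, and the point farthest to the right is DDI2 at 1.74.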

How the data were processed

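Read counts per gene symbol were deposited by the authors as whole numbers, neither scaled nor corrected for length. Per the submitters' processing notes, HISAT2, featureCounts and hg19 were used; versions, annotation and strand setting are stated by no source used here. TMM factors came from edgeR 4.0.16 in R 4.3.3. Log2 ratios used an added count of 0.5, with exact Clopper-Pearson intervals at 95% that cover counting error only. Ratios between genes have exact conditional intervals. Measured genes had at least 100 counts over both libraries. Lengths and GC content came from GENCODE 29 (GRCh38) for 98.1% of them. Adjustments subtracted a lowess curve (span 0.3) or regression splines, both centred on their median. The unadjusted procedure was tested on simulated counts with counting error only, so neither the adjustments nor variation between cultures was covered. All 8 genes are named, and from each list up to 3 highest and 3 lowest called genes, or the 2 with the most counts. Members and lists were chosen with earlier results of these data known. The alternatives were DESeq2 1.42.0 size factors, total counts, other minimums, limits, intervals, added counts and the length adjustments.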

Additional observations from a re-analysis of the deposited data

How the results depend on the processing

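No paired analysis was possible because each condition has 1 library, and leaving out a library leaves no comparison. The TOP3B call was kept with DESeq2 size factors, total counts, count minimums of 1 and 500, a stricter interval, an added count of 5 and the length adjustment. It was lost at a limit of 2-fold, where 0 of the 8 genes were higher, and with the spline adjustment, with 0 higher. At the smaller limit (0.32 on the log2 scale), 3 were higher and 1 lower. Over all genes, the 2-fold limit gave 128 higher and 175 lower, the smaller limit 2294 and 2416, the length adjustment 602 and 459, and the splines 509 and 365.

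Under total counts the log2 ratios were 0.20 for TOP1, 0.025 for TOP2A, 0.23 for TOP2B and 0.47 for TOP3A. With the length adjustment they were 0.092 for TOP1, -0.17 for TOP1MT, -0.23 for TOP2A, -0.0060 for TOP2B, 0.33 for TOP3A and 0.073 for TDP2. With the splines they were 0.052 for TOP1, -0.25 for TOP2A, -0.050 for TOP2B, 0.12 for TOP3A, 0.33 for TDP1 and 0.089 for TDP2. The log2 differences between genes with the length adjustment and the splines, the latter added after seeing the data, were 0.26 and 0.39 for TOP1 over TOP1MT, 0.34 and 0.24 for TDP1 over TDP2, -0.32 and -0.30 for TOP2A over TOP1, and -0.10 and -0.10 for TOP2B over TOP1. TOP3A over TOP3B was -0.38 with the splines. The cause of these differences was not tested.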
